A study of Homo sapiens with 4 samples.

Results

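The genes of cholesterol and fatty acid synthesis were examined in MDA-MB231 cells, a human breast cancer cell line. The cells stably carried either a scramble control shRNA or PIAS1 shRNA2, which targets the SUMO ligase gene PIAS1. Before RNA extraction they spent 30 h either in DMEM containing 10% FBS or in SCM, a serum-free stem cell medium that the methods describe as DMEM/F-12 with BSA, glutamine, EGF, basic FGF and insulin. RNA of each of the 4 conditions was read on 1 Affymetrix expression array. Each shRNA is represented by 1 selected cell line, so loss of PIAS1 and any other difference between the lines cannot be told apart. The members were a list of 38 genes chosen by name for their role. No measured value entered the rule, but the list was chosen with earlier results of these data known. Of these, 33 were read by 67 of the 22277 probe sets, a probe set being several short oligonucleotides against one transcript, and all genes read in this way numbered 11963. The probe sets of CYP51A1 and FADS1 are also listed for a second gene, and FDFT1, ACSS2 and ACSL3 are likewise not analysed here.

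Cells make cholesterol from acetyl-CoA through mevalonate, farnesyl diphosphate, squalene and lanosterol, and they make fatty acids from the same precursor through malonyl-CoA. Both routes are governed by the SREBP transcription factors, which SCAP carries out of the endoplasmic reticulum when membrane sterol is low, while INSIG proteins hold the complex back when sterol is plentiful. A second sensor, the nuclear receptor LXR, responds to oxysterols and is known for raising the efflux transporters ABCA1 and ABCG1 together with SREBF1 and SCD. Serum is a source of lipoprotein cholesterol and fatty acids for cultured cells, and SCM holds no serum.

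For a view of the DNA in front of these genes, the 250 bases before the outermost listed start are shown for 4 members. These were the members with a listed promoter that were most different, TM7SF2 and SCD for SCM over DMEM in control shRNA cells and FADS2 and LSS for the knockdown as seen in SCM. Any other listed start of a gene was not read. The sequences are from RefSeq on GRCh38.p14, 5′ to 3′ on the gene's strand, with chr11:65111622-65111871 on the plus strand for TM7SF2, chr10:100346983-100347232 on the plus strand for SCD, chr11:61815953-61816202 on the plus strand for FADS2 and chr21:46228775-46229024 on the minus strand for LSS. Capitals mark CCAAT, the core bound by NF-Y, and GGGCGG, the GC box bound by SP1 proteins, on either strand.
TM7SF2: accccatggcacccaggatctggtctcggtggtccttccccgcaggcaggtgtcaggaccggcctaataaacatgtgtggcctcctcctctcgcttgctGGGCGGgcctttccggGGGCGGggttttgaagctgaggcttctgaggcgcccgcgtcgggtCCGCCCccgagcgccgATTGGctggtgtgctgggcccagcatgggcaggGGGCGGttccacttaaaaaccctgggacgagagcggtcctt
SCD: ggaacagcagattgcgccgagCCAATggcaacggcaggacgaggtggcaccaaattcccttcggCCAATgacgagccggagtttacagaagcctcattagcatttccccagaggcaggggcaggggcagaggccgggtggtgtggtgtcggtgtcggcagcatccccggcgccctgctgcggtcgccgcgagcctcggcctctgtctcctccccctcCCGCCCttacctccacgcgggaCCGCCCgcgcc
FADS2: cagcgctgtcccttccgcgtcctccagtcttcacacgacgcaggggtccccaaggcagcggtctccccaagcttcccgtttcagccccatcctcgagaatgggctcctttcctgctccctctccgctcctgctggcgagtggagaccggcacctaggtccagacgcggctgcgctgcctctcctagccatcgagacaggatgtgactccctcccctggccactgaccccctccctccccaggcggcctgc
LSS: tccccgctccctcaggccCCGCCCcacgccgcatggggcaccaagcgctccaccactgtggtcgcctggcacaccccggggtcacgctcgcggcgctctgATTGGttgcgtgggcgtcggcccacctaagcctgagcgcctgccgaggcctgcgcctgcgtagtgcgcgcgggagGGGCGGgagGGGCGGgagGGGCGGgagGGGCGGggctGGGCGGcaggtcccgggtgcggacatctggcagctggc

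In the TM7SF2 window the CCAAT match began 74 bases before the start, between GC boxes, and in the LSS window it began 150 bases before the start, with 5 GC boxes in the last 75 bases. The SCD window held 2 CCAAT and 2 GC box matches, and the FADS2 window held none of the motifs searched. Promoters were listed for 29 of the 33 measured members, and each gene was read before its outermost listed start only. Of these, 17 (58.6%) held CCAAT and 25 (86.2%) held GGGCGG, where the shares among all 27305 genes with a promoter were 33.0% and 42.2%, and among the 9563 of them read on this array 35.5% and 60.4%. TCACNCCAC, a form of the sterol regulatory element, was in 1 member window, that of SREBF2, and in 0.868% of all. The E-box CACGTG was in 5 member windows (17.2%) and in 6.46% of all. No motif searched contains another, both strands were read, and a match is a description of the letters only.

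The values are deposited signals, array intensities on a linear scale, and signals of a gene are given below with control shRNA first and PIAS1 shRNA2 second. A gene was read from its brightest probe set. Signals under a background floor of 176, taken from 73 genes of other tissues, were raised to it. All 33 members were above the floor on all 4 arrays, from MVD at 335 to SCD at 35695, and 30 of them stayed above the highest array median of 605. Each condition has 1 array, so ratios have no test and no error between cultures. One spread that can be had is that between probe sets of the same gene. Over 2654 genes with several above the floor on all arrays, its SD on the log2 scale was 0.28 for the knockdown in SCM, 0.27 for the knockdown in DMEM, and 0.36 and 0.37 for the medium in control shRNA and PIAS1 shRNA2 cells. It covers neither culture nor array. A gene is counted below as higher or lower where the ratio was at least 1.5-fold.

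PIAS1 itself read 37.0% of control in each medium. The arrays had the same trimmed mean, and ACTB probes at the 3' end read between 0.946 and 1.11 times those at the 5' end, which reflects how intact the RNA was. All 10 markers of MDA-MB231 cells, such as VIM, were above the floor on all arrays. Of 9 luminal breast epithelium genes PGR, FOXA1 and CDH1 stayed under it on all arrays and 6 were above it. These 6 differed by medium, with median log2 ratios of 1.20 and 0.91 for SCM over DMEM in control shRNA and PIAS1 shRNA2 cells. In each, 4 of 6 were at least 1.5-fold higher and 1 lower. Among 9811 genes above the floor on at least 1 array, 20.9% were higher and 20.3% lower in control shRNA cells. In PIAS1 shRNA2 cells these shares were 20.7% and 20.6%. TFF1, for example, read 233 and 276 in DMEM and 2671 and 2188 in SCM, while GATA3 read 6040 and 4765 in DMEM and 3103 and 1718 in SCM. For the knockdown in SCM the median of these 6 genes was -0.36, with 2 lower and none higher, beside 6.81% and 7.17% of the 9811 genes. The summed signal of the list was between 10668 and 15678. The part of the luminal genes in the members' differences was not tested. No hepatocyte gene of 13 and 2 adipocyte genes of 9, CIDEC and LPL, were above the floor on all arrays, and the summed signals of these lists were between 1211 and 2050 and between 1687 and 2193.

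**Figure D1:**
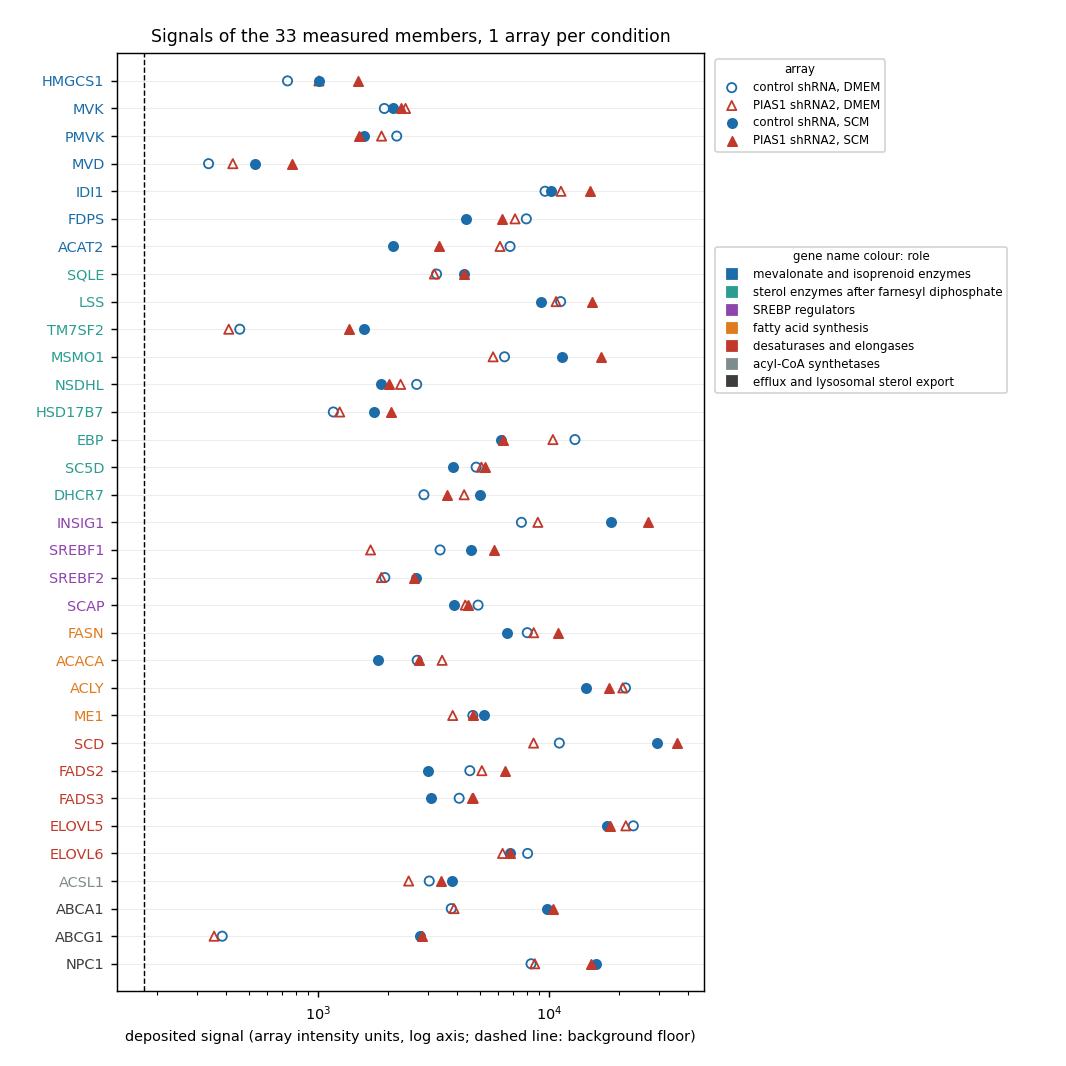
Deposited signal (x axis, array intensity units, log scale) of the 33 measured members (y axis) in the 4 conditions, 1 array each, with gene names coloured by role and the background floor of 176 as a dashed line. Filled SCM symbols lie to the right of open DMEM symbols for ABCG1, ABCA1, NPC1, SCD, INSIG1, MSMO1 and TM7SF2, and to the left for EBP and ACAT2.

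Between the media the members differed in both directions, and sterol export was the role in which every member was higher in SCM. In control shRNA cells 10 of the 33 members were at least 1.5-fold higher in SCM than in DMEM and 4 were lower, beside 20.9% and 20.3% of the 9811 genes above the floor on at least 1 array. In PIAS1 shRNA2 cells 10 were higher and 2 lower, beside 20.7% and 20.6%. The median log2 ratio of the members was 0.12 and 0.35, and over all 9811 genes it was 0 in both cell types. These comparisons share no array. Higher in both cell types were 9 members, MVD, TM7SF2, MSMO1, HSD17B7, INSIG1, SCD, ABCA1, ABCG1 and NPC1, and 2 were lower in both, EBP and ACAT2, where all genes gave 14.4% and 14.9%. Across the 33 members the ratios in the 2 cell types correlated with r = 0.89 (Pearson) and rho = 0.84 (Spearman), and across the 7738 genes above the floor on all arrays with 0.87 and 0.85. All points come from the same 4 arrays, and the correlations are given as a description.

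The members of sterol export and efflux were all higher in SCM, and ABCG1 had the widest difference between the media of any member. ABCG1, a transporter that passes sterol to lipoprotein particles, read 384 and 354 in DMEM and 2746 and 2815 in SCM, 7.15-fold and 7.94-fold higher in SCM. Its DMEM signals were under the array median, and with the floor at the highest array median its log2 ratios were 2.18 and 2.22. ABCA1, the transporter that loads cholesterol and phospholipid onto apolipoprotein A-I, read 3766 and 3872 in DMEM and 9741 and 10360 in SCM, 2.59-fold and 2.68-fold higher. NPC1, which moves cholesterol out of lysosomes, read 8341 and 8655 in DMEM and 15901 and 15092 in SCM, 1.91-fold and 1.74-fold higher. For all of these genes both SCM arrays lay above both DMEM arrays, and the arrays of one medium differed little. A second probe set of ABCG1 gave 6.86-fold and 5.51-fold and a second one of ABCA1 2.41-fold and 2.88-fold. A further ABCA1 set and a second NPC1 set were under the floor on at least 1 array.

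Among the SREBP regulators, INSIG1, the retention protein and itself a known SREBP target, read 7578 and 8928 in DMEM and 18534 and 26708 in SCM, 2.45-fold and 2.99-fold higher. Its other probe sets gave 2.27-fold and 2.25-fold in control shRNA cells and 3.47-fold and 4.67-fold in PIAS1 shRNA2 cells. SREBF1, which encodes the SREBP of fatty acid synthesis, read 3370 and 1686 in DMEM and 4564 and 5790 in SCM. It was thus 1.35-fold higher in SCM in control shRNA cells and 3.44-fold higher in PIAS1 shRNA2 cells, where its DMEM signal was the lowest of the 4. SREBF2, the SREBP of sterol synthesis, was 1.36-fold and 1.39-fold higher in SCM on its brightest set and 1.14-fold and 1.64-fold higher on its other. SCAP, the escort of the SREBPs, differed by at most 1.28-fold.

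The enzymes from acetyl-CoA to farnesyl diphosphate were split. ACAT2, the cytosolic thiolase that joins acetyl-CoA units, read 6768 and 6121 in DMEM and 2110 and 3333 in SCM, 3.21-fold and 1.84-fold lower in SCM. FDPS, the farnesyl diphosphate synthase, read 7960 and 7112 in DMEM and 4354 and 6227 in SCM, 1.83-fold lower in control shRNA cells and 1.14-fold lower in PIAS1 shRNA2 cells. MVD, the decarboxylase of the mevalonate route, ran the other way, with 335 and 427 in DMEM and 534 and 767 in SCM, 1.59-fold and 1.80-fold higher, but all but the last of its signals were under the array median. With the floor at that median its log2 ratio was 0 in control shRNA cells. HMGCS1, the synthase that makes HMG-CoA, was 1.37-fold and 1.48-fold higher on its brightest probe set and 2.36-fold and 2.48-fold higher on its other, which read 656 and 625 in DMEM and 1551 and 1553 in SCM. MVK, PMVK and IDI1, the kinases and the isomerase, were between 1.39-fold lower and 1.33-fold higher on their brightest sets. The other IDI1 set was 1.03-fold and 1.46-fold higher. A dim MVK set, above the floor on 2 arrays, was at least 2.21-fold lower in control shRNA cells and at least 1.46-fold higher in PIAS1 shRNA2 cells. Both IDI1 probe sets and the only HSD17B7 set are of a type open to cross-hybridization with similar sequences.

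The enzymes after farnesyl diphosphate were split as well. In control shRNA cells 4 of 9 were higher in SCM and 1 lower, beside 20.9% and 20.3% of all genes. In PIAS1 shRNA2 cells 3 were higher and 1 lower, beside 20.7% and 20.6%. TM7SF2, a sterol reductase, read 458 and 410 in DMEM and 1572 and 1361 in SCM, 3.43-fold and 3.32-fold higher. Its DMEM signals were under the array median, and with the floor at the highest array median its log2 ratios were 1.38 and 1.17. MSMO1, the methyl sterol oxidase that starts C4 demethylation, read 6405 and 5714 in DMEM and 11402 and 16678 in SCM, 1.78-fold and 2.92-fold higher. EBP, the sterol isomerase, read 12920 and 10372 in DMEM and 6187 and 6277 in SCM, 2.09-fold and 1.65-fold lower. All 3 probe sets of EBP were lower in SCM in both cell types, between 1.32-fold and 2.41-fold. HSD17B7, a ketosteroid reductase of the pathway, read 1163 and 1239 in DMEM and 1752 and 2064 in SCM, 1.51-fold and 1.67-fold higher. SQLE, the squalene epoxidase and a rate-limiting step, was 1.32-fold and 1.35-fold higher, and LSS, NSDHL and SC5D stayed within 1.43-fold on their brightest sets. The other SC5D set was higher in SCM, with log2 ratios of 0.98 and 0.61 against -0.33 and 0.06. A dimmer LSS set, at 248 to 530, was 1.24-fold lower in control shRNA cells and 2.14-fold higher in PIAS1 shRNA2 cells. DHCR7, the last reductase before cholesterol, read 2868 and 4283 in DMEM and 5005 and 3600 in SCM. It was 1.74-fold higher in control shRNA cells on its brightest probe set and 1.20-fold lower on the other, so no direction can be given for it.

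In the fatty acid branch one gene stood far from the rest. SCD, the desaturase that makes oleate, read 11060 and 8554 in DMEM and 29378 and 35695 in SCM, 2.66-fold and 4.17-fold higher. Its 3 other probe sets gave 2.14-fold to 2.43-fold in control shRNA cells and 2.57-fold to 3.39-fold in PIAS1 shRNA2 cells. FADS2, the delta-6 desaturase of polyunsaturated fatty acids, ran against SCD in control shRNA cells, with 4532 in DMEM and 2997 in SCM, 1.51-fold lower, and read 5110 and 6403 in PIAS1 shRNA2 cells, 1.25-fold higher. Of the enzymes that build palmitate none differed by 1.5-fold on its brightest probe set. ACLY, which makes cytosolic acetyl-CoA from citrate, was 1.49-fold and 1.15-fold lower in SCM, and its other sets were 1.41-fold and 1.71-fold lower in control shRNA cells. ACACA, the carboxylase that makes malonyl-CoA, was 1.48-fold and 1.26-fold lower, and FASN, the fatty acid synthase, 1.22-fold lower and 1.27-fold higher. ME1, FADS3, ELOVL5, ELOVL6 and ACSL1 stayed within 1.38-fold on their brightest sets, and the other ACSL1 set was 1.58-fold higher in SCM in both cell types.

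**Figure D2:**
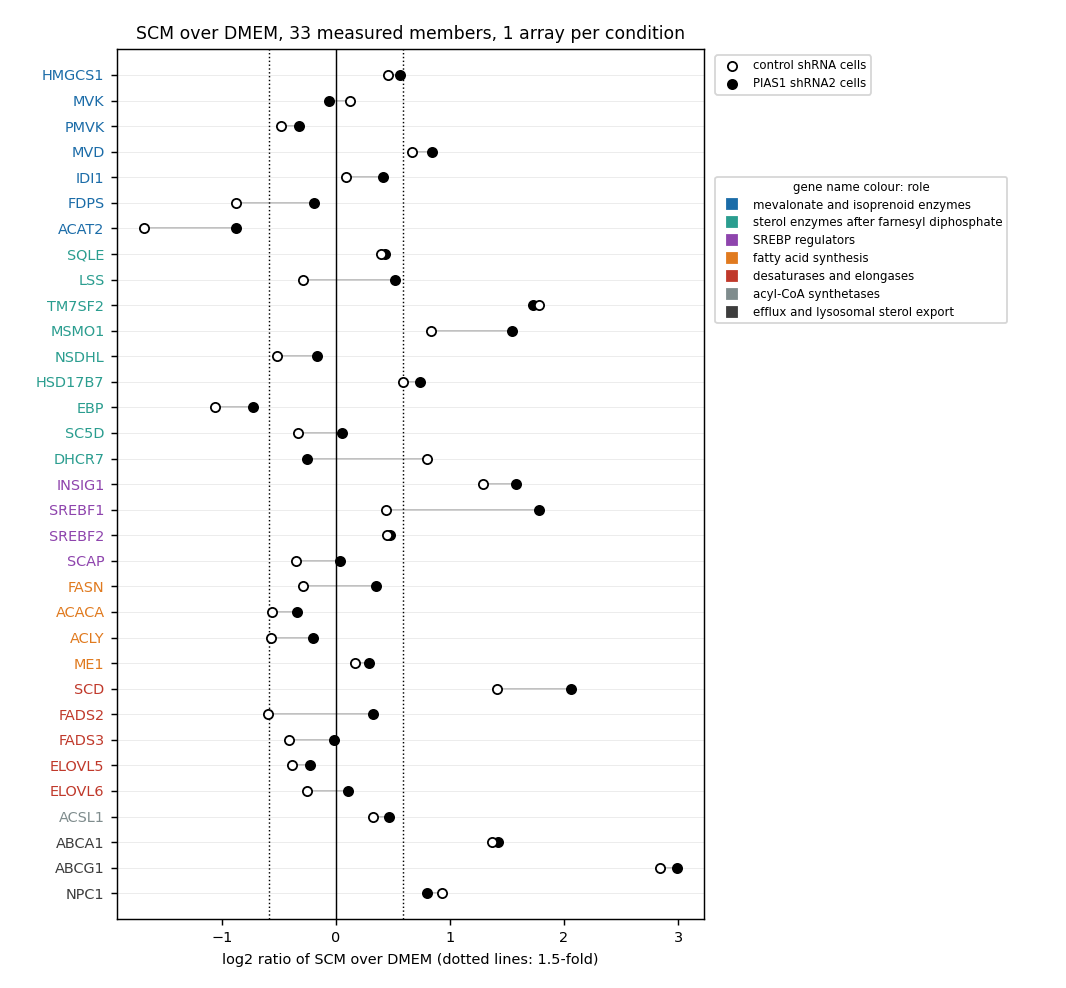
Log2 ratio of SCM over DMEM (x axis) for each measured member (y axis), in control shRNA cells (open circles) and PIAS1 shRNA2 cells (filled circles), 1 array per condition, with dotted lines at 1.5-fold. ABCG1 lies near 3 in both, ACAT2 and EBP lie left of the dotted line in both, and SREBF1 shows the widest gap between the cell types.

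With PIAS1 shRNA2 most members read higher than with control shRNA in SCM, and in DMEM they were split. In SCM 5 of 33 members were at least 1.5-fold higher than with control shRNA and none was lower, beside 7.17% and 6.81% of all 9811 genes. Among the 7738 genes that, like the members, were above the floor on all arrays these shares were 5.84% and 5.78%. The log2 ratio was above 0 for 25 members and below 0 for 8, with a median of 0.24, where the 7738 genes had 3893 above and 3845 below 0 and a median of 0.00. In DMEM no member was higher and 1 was lower, beside 6.36% and 4.34%, and the median was -0.05, with 14 members above 0 and 19 below, and 3864 and 3874 of the 7738 genes. The differences were small next to those of the medium, and on the brightest probe sets only that of FADS2 was over 2-fold.

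FADS2 had the largest ratio, with 2997 and 6403 in SCM, 2.14-fold higher, against 4532 and 5110 in DMEM, 1.13-fold. FADS3, its neighbour of the same family, read 3067 and 4627 in SCM, 1.51-fold higher on its brightest probe set and 1.62-fold on its other, and was 1.15-fold higher in DMEM. In both genes the SCM array of control shRNA cells was the lowest of the 4. SCD, in contrast, was 1.22-fold higher in SCM and 1.29-fold lower in DMEM, and both elongase genes differed by at most 1.04-fold in SCM on their brightest sets. The other ELOVL6 set was 1.38-fold lower in SCM.

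FASN read 6567 and 10911 in SCM, 1.66-fold higher, and 8035 and 8564 in DMEM, 1.07-fold. Its other probe set was under the floor on all arrays. ACACA read 1817 and 2719 in SCM, and its log2 ratio of 0.58 lay just under the 1.5-fold limit, which is also 0.58 when rounded. ACLY was 1.26-fold higher in SCM on its brightest probe set. ME1, which supplies NADPH, was 1.12-fold lower in SCM and ACSL1, which activates long-chain fatty acids, 1.11-fold lower.

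In the sterol branch LSS, the cyclase that makes lanosterol, read 9198 and 15309 in SCM, 1.66-fold higher, and 11202 and 10709 in DMEM, 1.05-fold lower. Its other probe sets gave 1.97-fold and 1.30-fold in SCM. ACAT2 read 2110 and 3333 in SCM, 1.58-fold higher, and was 1.11-fold lower in DMEM. A further group lay between 1.43-fold and 1.47-fold in SCM on their brightest sets, namely HMGCS1, MVD, IDI1, FDPS, MSMO1 and INSIG1. Of these, FDPS and MSMO1 were 1.12-fold lower in DMEM. For INSIG1 the other probe sets gave 1.67-fold and 2.15-fold in SCM, where all 3 read higher with PIAS1 shRNA2. For HMGCS1 the other set read 1551 and 1553 in SCM, and the other IDI1 set was 1.56-fold higher there. On their brightest sets the early enzymes ACAT2, HMGCS1, MVK, MVD, IDI1 and FDPS were all above 0 in SCM and PMVK was not. The median log2 ratio over these 7 genes was 0.52, and 3893 of the 7738 genes above the floor on all arrays were above 0.

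For the other members the shRNAs were closer in SCM. On their brightest sets ABCA1, ABCG1 and NPC1 differed by at most 1.06-fold in SCM and 1.08-fold in DMEM, the smallest differences of any role. In SCM a second ABCA1 set was 1.20-fold higher and the second ABCG1 set 1.14-fold lower. The second NPC1 set, dim at 318 and 203 in SCM, was 1.56-fold lower there. SQLE read 4285 and 4284 in SCM on its brightest set, with its other sets at log2 ratios of 0.50 and -0.52. SREBF2 differed by 1.02-fold on its brightest set and was 1.25-fold higher on its other. TM7SF2 was 1.15-fold lower, and EBP and NSDHL had log2 ratios of 0.02 and 0.12 on their brightest sets. SC5D, the sterol desaturase, was 1.38-fold higher and SCAP 1.15-fold higher. HSD17B7 had log2 ratios of 0.24 in SCM and 0.09 in DMEM. The 15 members under 1.5-fold in all 4 comparisons on their brightest sets include SQLE, SREBF2, SCAP and both kinases. Some of the 15 had another set past 1.5-fold by medium, such as SREBF2, at 1.64-fold higher in PIAS1 shRNA2 cells, and MVK.

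In DMEM the gene furthest from 0 was SREBF1, with a log2 ratio of -0.999 for PIAS1 shRNA2 over control shRNA, while in SCM it was 1.27-fold higher. It has 1 probe set here. DHCR7 was 1.49-fold higher in DMEM on its brightest set and 1.14-fold lower on its other. HMGCS1 was 1.37-fold higher, ACACA 1.28-fold higher and MVD 1.27-fold higher in DMEM on their brightest sets. The other HMGCS1 set was 1.05-fold lower in DMEM.

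**Figure D3:**
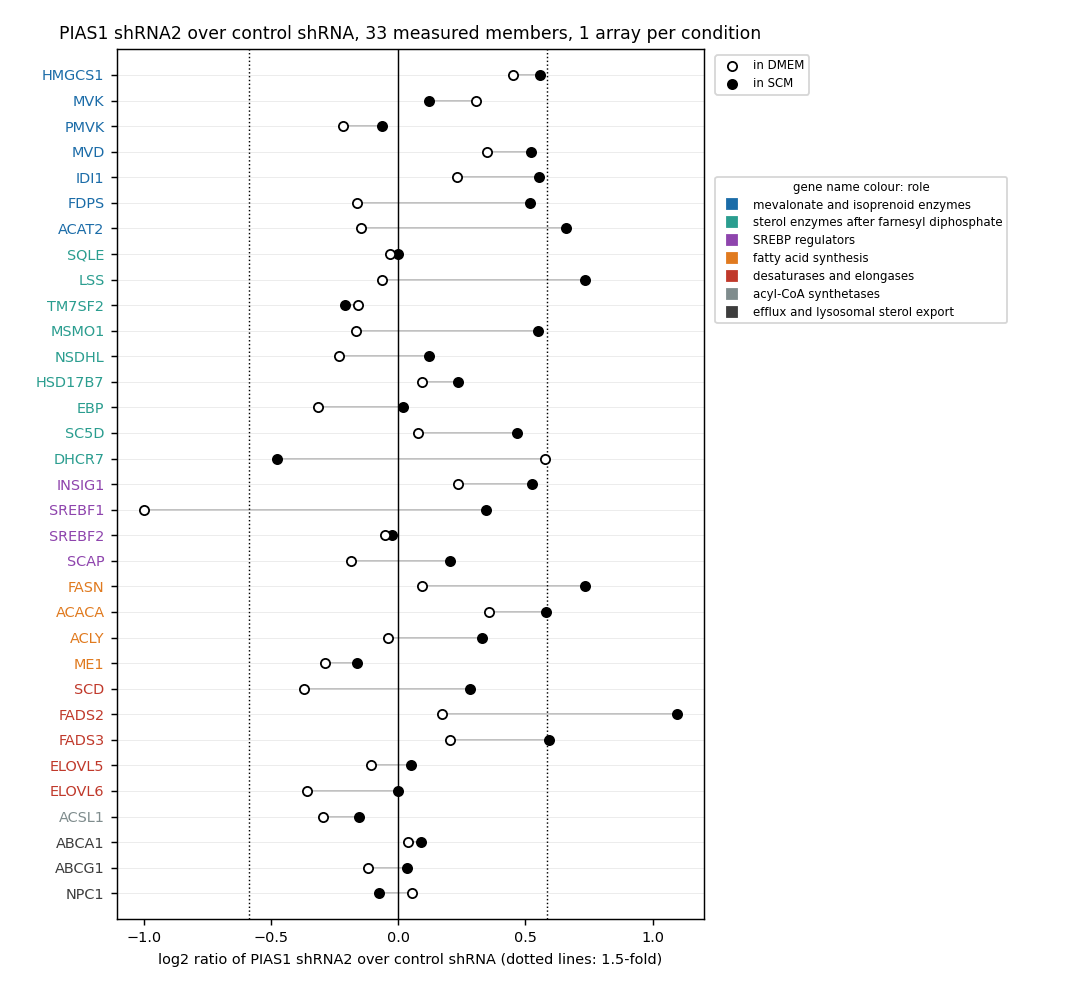
Knockdown ratio, PIAS1 shRNA2 over control shRNA on a log2 scale (x axis), for each measured member (y axis) in DMEM (open circles) and in SCM (filled circles), 1 array per condition, with dotted lines at 1.5-fold. The SCM circle lies right of the DMEM circle for 29 of 33 members, furthest right for FADS2, and SREBF1 in DMEM lies furthest left.

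The knockdown ratio was larger in SCM than in DMEM for 29 of the 33 members and smaller for DHCR7, MVK, NPC1 and TM7SF2. It was larger in SCM by at least 1.5-fold for 8 members and smaller for 1, where 9.03% and 10.5% of all 9811 genes were so. The median difference of the log2 ratios was 0.29, and over the 7738 genes above the floor on all arrays it was 0.01. The differences largest in size were 1.34 for SREBF1, -1.05 for DHCR7 on its brightest probe set, 0.92 for FADS2, 0.80 for ACAT2 and 0.80 for LSS. The knockdown ratios in SCM and in DMEM share no array, and across the 33 members they correlated with r = 0.20 (Pearson) and rho = 0.36 (Spearman). With 1 array per condition this difference between the media was not tested, and the array of control shRNA cells in SCM enters both the medium ratio of control cells and the knockdown ratio in SCM. LSS, FASN, FADS2, FADS3 and ACAT2, the 5 members counted as higher for the knockdown in SCM, all had their lowest signal on that array.

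**Figure D4:**
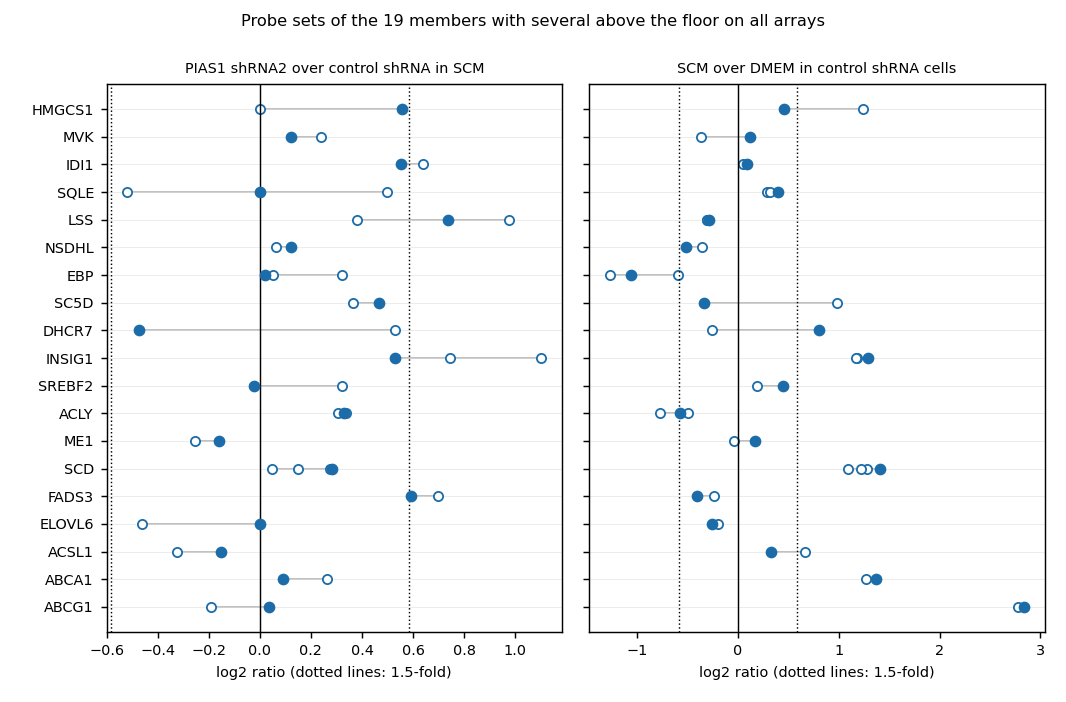
Log2 ratio (x axis) from each probe set of the 19 members with several above the floor on all arrays, for the knockdown in SCM (left) and SCM over DMEM in control shRNA cells (right). Filled circles are the probe sets used for the genes and open circles the others. The sets of SCD, INSIG1 and ABCG1 lie together on the right panel, while those of DHCR7 lie on either side of 0 in both panels. The sets of SQLE, SREBF2, ABCG1 and ELOVL6 also lie on either side of 0 in the left panel, and those of SC5D, MVK and ME1 in the right one.

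For most members past 1.5-fold that could be read from more than 1 probe set, these pointed the same way. Of the 14 members past 1.5-fold by medium in control shRNA cells, 6 had other sets above the floor on all arrays. In 5 of them, EBP, INSIG1, SCD, ABCA1 and ABCG1, all sets were past 1.5-fold in the same direction, and DHCR7 was the exception. Of the 5 members higher with PIAS1 shRNA2 in SCM, LSS and FADS3 could be checked in this way. All their sets had ratios above 0, and for FADS3 all were past 1.5-fold, while 1 LSS set was at 1.30-fold. Over the 19 members with several such sets the SD between sets of a gene was 0.27 on the log2 scale for the knockdown in SCM. The ratios of FADS2, 1.10, FASN, 0.73, and ACAT2, 0.66, each rest on 1 probe set above the floor.

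In lists of other lipid genes, counts by shRNA stand beside 7.17% of all genes higher and 6.81% lower in SCM, so that lists of this length would hold few such genes or none. Of 19 further sterol and SREBP pathway genes above the floor none was at least 1.5-fold different in SCM, with a median log2 ratio of 0.00, and of 8 LXR receptor and target genes also none, with 0.06. There was also none among 11 lipoprotein receptor and uptake genes, 14 genes of sterol esterification, transport and lipid droplets and 24 of fatty acid oxidation, with medians of -0.01, -0.11 and 0.02. In DMEM, where 6.36% of all genes were higher and 4.34% lower, 1 of the 19 further genes was higher and 1 lower, 1 of the 8 LXR genes was higher, 2 of the 11 uptake genes and 3 of the 24 oxidation genes were higher and 1 oxidation gene was lower.

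By medium these genes differed more. INSIG2, the second INSIG gene, read 2817 and 2696 in DMEM and 12269 and 9758 in SCM, a log2 ratio of 2.12 in control shRNA cells and 1.86 in PIAS1 shRNA2 cells. TMEM97, a sterol-responsive membrane protein gene, went the other way, with 8090 and 8319 in DMEM and 1260 and 1324 in SCM, or -2.68 and -2.65. LBR, which has sterol reductase activity beside its role in the nuclear lamina, had -0.80 and -0.95. Of the 19 further genes 1 was higher and 3 lower in SCM in control shRNA cells, beside 20.9% and 20.3% of all genes. In PIAS1 shRNA2 cells 3 were higher and 5 lower, beside 20.7% and 20.6%.

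Among the LXR genes 1 of 8 was higher in SCM in control shRNA cells and 5 of 8 in PIAS1 shRNA2 cells, beside 20.9% and 20.7% of all genes, and none was lower. PLTP, the phospholipid transfer protein, read 404 and 529 in DMEM and 2243 and 2052 in SCM, log2 ratios of 2.47 and 1.96. NR1H3, which encodes LXR alpha, had 0.54 and 0.81, and SMPDL3A, a phosphodiesterase known as an LXR target, 0.18 and 0.75. The median of the 8 genes was 0.29 and 0.63. Together with ABCA1 and ABCG1, PLTP was on the higher side in SCM in both cell types.

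The lists of lipoprotein uptake, lipid droplets and fatty acid oxidation are to be read against 20.9% of all genes higher and 20.3% lower in SCM in control shRNA cells, and 20.7% and 20.6% in PIAS1 shRNA2 cells, and no difference from these shares was tested. VLDLR, a lipoprotein receptor, read 365 and 655 in DMEM and 4471 and 4431 in SCM, log2 ratios of 3.61 and 2.76, and the receptor gene LRP1 had 2.55 and 1.31, while FABP5, a fatty acid carrier, had -1.96 and -1.84. Of the 11 uptake genes 4 were higher and 1 lower in control shRNA cells and 3 and 1 in PIAS1 shRNA2 cells. Among the 14 esterification and droplet genes the counts were 4 higher and 3 lower, and 4 and 4. HILPDA, a droplet protein gene, had 3.05 and 3.04, the droplet coat gene PLIN2 1.94 and 1.59 and the sterol-binding protein gene OSBPL2 1.27 and 0.97. Of the 24 genes in the oxidation list 10 were higher and 3 lower in control shRNA cells and 11 and 2 in PIAS1 shRNA2 cells. That list is not limited to oxidation enzymes, and it includes ANGPTL4 and PDK4. ANGPTL4, an inhibitor of lipoprotein lipase, had at least 4.52 in control shRNA cells, where its DMEM signal was under the floor, and 3.64 in PIAS1 shRNA2 cells, PDK4, a kinase that restrains pyruvate oxidation, at least 3.14 and at least 3.03, and ACADVL, the very long-chain acyl-CoA dehydrogenase, 1.80 and 1.33.

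Cell cycle genes differed as well, and mostly to the lower side. The members had median log2 ratios of 0.12 and 0.35 for SCM over DMEM and 0.24 for the knockdown in SCM. All 29 cell cycle genes were lower in SCM in both cell types, beside 20.3% and 20.6% of all genes, with median log2 ratios of -1.85 and -2.49. With PIAS1 shRNA2 in SCM 18 of 29 were lower and none higher, beside 6.81% and 7.17% of all genes, with a median of -0.78. In DMEM none was 1.5-fold different by shRNA, with a median of -0.06. MKI67, a proliferation marker, read 8054 and 10347 in DMEM and 2203 and 1041 in SCM, RRM2, a ribonucleotide reductase subunit, 5411 and 2301 in SCM, and MCM3, a helicase subunit, 1529 and 1490 in SCM. The part of these genes in the members' differences was not tested.

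**Figure D5:**
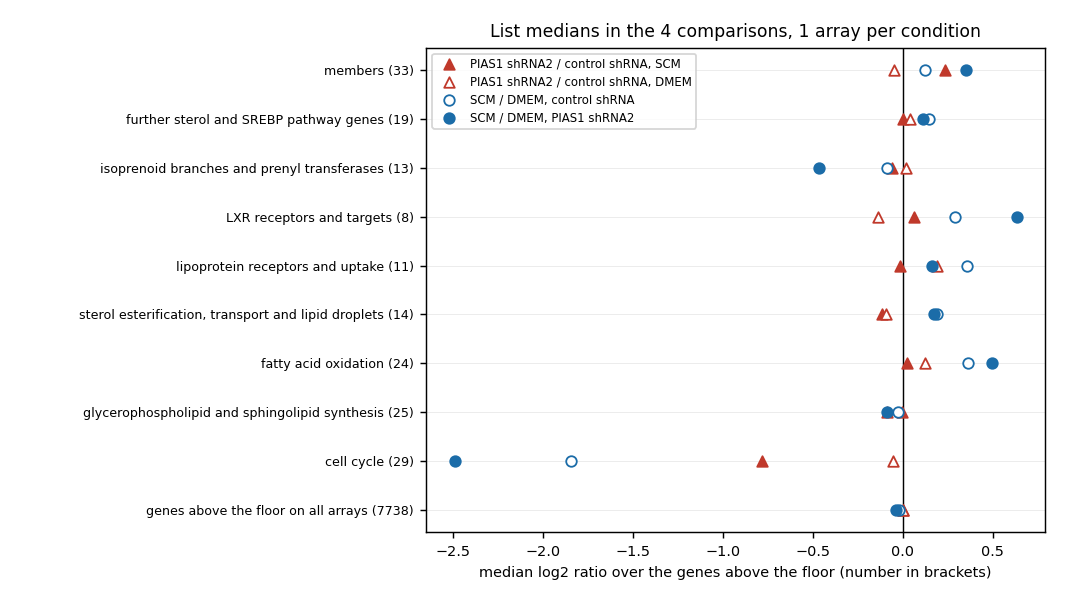
Median log2 ratio (x axis) of the members, of 7 lists of other lipid genes, of the cell cycle genes and of genes above the floor on all arrays (y axis, number of genes above the floor in brackets) in the 4 comparisons, 1 array per condition. Triangles compare the shRNAs and circles the media; the members have 0.24 for the knockdown in SCM, where the other lipid lists lie between -0.11 and 0.06 and the cell cycle genes at -0.78.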

How the data were processed

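Total RNA of 4 conditions was hybridised to 1 Affymetrix array each. The values deposited are linear signal intensities, for which the notes of the submitters on processing list MAS5. The sources used here give neither its version nor its settings. Each array had been scaled by the authors to the same trimmed mean.

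Gene names came from the annotation of the array (19070 probe sets with 1 gene, 1043 with several and 2164 with none, the latter 2 left out), and a gene's value was that of its brightest probe set by mean log2 signal. As floor served the highest of the 4 arrays' 75th percentiles over 100 probe sets of 73 genes of other tissues. Ratios were taken as log2 differences, with 1.5-fold as the limit and, as each condition has 1 array, no test. The members and lists were chosen with earlier results of these data known. Members at least 1.5-fold different in any comparison were given in full, and of each other list the up to 3 genes with the largest ratios were named. HMGCS1, ACACA and the members counted by direction were named after their values were seen. Other settings tried were a 2-fold limit, different floors, means or medians over a gene's probe sets, quantile normalization and scaling to a common median. Steps were tested on simulated data. Python 3.11.15, NumPy 2.4.6, pandas 2.3.3 and matplotlib 3.10.9 were used. The number of arrays limits the precision.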

Additional observations from a re-analysis of the deposited data

Results flagged for a closer look

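The knockdown ratio had opposite signs in the media and differed by at least 2-fold between them in 2 members, SREBF1 and DHCR7. For SREBF1 the value in SCM less the value in DMEM was 1.34 on the log2 scale, from signals of 3370 and 1686 in DMEM and of 4564 and 5790 in SCM. For DHCR7 it was -1.05 on the brightest probe set, which read 2868 and 4283 in DMEM and 5005 and 3600 in SCM. The other DHCR7 set read 3721 and 3255 in DMEM and 3107 and 4489 in SCM, with the opposite pattern. With 1 array per condition these differences were not tested.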

How the results depend on the processing

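Of the 32 member ratios past 1.5-fold, 25 stayed past it under all 6 other ways to set the floor, scale the arrays or join probe sets, and none changed sign. Several of these ways could not change a ratio. All 33 members lay above the floor, so leaving it out altered none. A floor at the highest array median could not alter the 30 members above it. Joining probe sets could not alter the 10 members with 1 set. FASN fell under it for the knockdown in SCM with the mean of all probe sets, at 0.37. By medium in control shRNA cells, MVD did under 3 alternatives, DHCR7 under 2, and HSD17B7 and FADS2 under 1 each, and in PIAS1 shRNA2 cells NPC1 did under 2 and MVD under 1. The median log2 ratio for the medium in control shRNA cells was 0.034 with arrays scaled to a common median and 0.27 with the mean of all probe sets, and with the common median 7 members were lower in place of 4. With 2-fold in place of 1.5-fold, 1 member was higher for the knockdown in SCM and 0 lower in DMEM, 5 were higher and 2 lower by medium in control shRNA cells and 0 lower in PIAS1 shRNA2 cells. The other medians and counts kept within the spread or 1.5 times. No paired analysis was possible because each condition has 1 array, and no array can be left out. The lowest member signal was 1.90 times the floor.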

Other observations

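Prenylation and ubiquinone genes branch off the mevalonate route and were read beside the members. Of 13 above the floor, 1 was at least 1.5-fold higher and 4 lower in SCM in control shRNA cells. In PIAS1 shRNA2 cells 2 were higher and 6 lower, and the median log2 ratios were -0.09 and -0.46. The shares of all genes were 20.9% higher and 20.3% lower in control shRNA cells, and 20.7% and 20.6% in PIAS1 shRNA2 cells. PDSS1, which makes the ubiquinone side chain, read 2105 and 2534 in DMEM and 471 and 394 in SCM, log2 ratios of -2.16 and -2.69. ICMT, the methyltransferase of prenylated proteins, had -1.99 and -1.56. RCE1, the protease that trims prenylated proteins, read 1606 and 630 in SCM (control shRNA first), a log2 ratio of -1.35, and 1168 and 1289 in DMEM. With PIAS1 shRNA2, 1 of the 13 genes was higher and 1 lower in SCM, beside 7.17% and 6.81% of all genes, with a median of -0.06. None was different in DMEM, beside 6.36% higher and 4.34% lower, with a median of 0.02.

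Of 25 genes of glycerophospholipid and sphingolipid synthesis, 4 were higher and 3 lower in SCM in control shRNA cells and 3 and 2 in PIAS1 shRNA2 cells. All genes gave 20.9% higher and 20.3% lower in control shRNA cells, and 20.7% and 20.6% in PIAS1 shRNA2 cells. PTDSS1, a phosphatidylserine synthase, had -1.58 and -1.36. CHKB, a choline kinase, read 723 and 382 in DMEM and 1399 and 1090 in SCM, or 0.95 and 1.51, and PCYT2, of phosphatidylethanolamine synthesis, had -1.48 and -0.85. With PIAS1 shRNA2, 1 gene was higher and none lower in SCM, beside 7.17% and 6.81% of all genes. In DMEM 1 was higher and 2 lower, beside 6.36% and 4.34%.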
